A study of Drosophila melanogaster with 2 samples.

Results

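The small ribosomal subunit of Drosophila melanogaster is built from ribosomal RNA and proteins encoded by the RpS genes, and promoter binding of MESR4 was examined at each of these genes. The members were the protein-coding genes of the Ensembl BDGP6 annotation whose symbol begins with RpS and a digit, which gave 38 of 13834 protein-coding genes. MESR4 is a nuclear protein with PHD and zinc finger domains. The data came from 1 group, a transgenic line that stably expresses MESR4 fused at its C terminus to green fluorescent protein (GFP). Whole embryos of mixed sex were collected between 0 and 24 h of development, and chromatin was sonicated to fragments of 200 to 800 bp for chromatin immunoprecipitation and sequencing (ChIP-seq). There were 2 samples, biological replicates 1 and 3, and no wild-type, untreated or other comparison group. The free text of the labels describes both samples as input controls. Their antibody label is MESR4, and the deposited listing gives a further alignment as the control of each replicate list, so the samples were read as MESR4 immunoprecipitates. The antibody that recognised the fusion protein, the promoter that drove it and whether the embryos were separate collections are not given in the sources used here. Whole embryos mix cell types and developmental stages, so a weaker peak in every cell and a stronger peak in few cells cannot be told apart.

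In cells, the small subunit binds messenger RNA, finds the start codon and pairs codons with transfer RNA, and each subunit needs its proteins in nearly equal numbers. Ribosomal protein genes are among the most strongly transcribed genes of growing cells, and in flies the loss of 1 copy of many of them gives the Minute phenotype of slow development and thin bristles. Many fly ribosomal protein promoters have a TCT-type initiator, in which transcription starts at a C followed by a run of T, in place of the usual initiator. Some ribosomal protein promoters, with or without that initiator, and many housekeeping genes carry the DNA replication-related element (DRE), an AT-rich palindrome.

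The start-site sequences of 11 genes are shown for the start that most RpS promoters share, and to set bound gene copies beside their unbound partners. Each runs from 100 bases before an annotated transcription start site (TSS) through 20 bases from that site on, 5′ to 3′ on the gene's strand, from the RefSeq release 6 (dm6) genome. Capitals mark a CTTT whose C lies within 5 bp of the TSS, here called a TCT-type start, and the DRE sequence TATCGATA on either strand. The first 5 belong to genes with a promoter peak and a TCT-type start, and RpS25, RpS6 and RpS14a also carry the DRE.
RpS3A, chr4:67188-67307, minus strand: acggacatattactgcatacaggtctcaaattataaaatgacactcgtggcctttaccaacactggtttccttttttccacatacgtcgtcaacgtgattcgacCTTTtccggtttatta
RpS3, chr3R:23358712-23358831, plus strand: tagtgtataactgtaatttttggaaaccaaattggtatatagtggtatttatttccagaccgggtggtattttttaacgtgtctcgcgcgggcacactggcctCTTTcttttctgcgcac
RpS25, chr3R:11216268-11216387, minus strand: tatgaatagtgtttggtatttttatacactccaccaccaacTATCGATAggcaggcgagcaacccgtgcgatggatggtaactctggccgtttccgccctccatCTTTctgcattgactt
RpS6, chrX:7901312-7901431, minus strand: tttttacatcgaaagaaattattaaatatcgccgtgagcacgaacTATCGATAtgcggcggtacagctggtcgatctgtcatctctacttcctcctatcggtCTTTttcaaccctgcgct
RpS14a, chrX:7933642-7933761, plus strand: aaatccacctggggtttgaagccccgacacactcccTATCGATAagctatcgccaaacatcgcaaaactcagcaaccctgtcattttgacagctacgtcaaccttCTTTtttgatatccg
The next 6 are 3 pairs of gene copies. RpS5a, RpS19a and RpS10b, each with a promoter peak, stand before RpS5b, RpS19b and RpS10a, which had none.
RpS5a, chrX:17148245-17148364, minus strand: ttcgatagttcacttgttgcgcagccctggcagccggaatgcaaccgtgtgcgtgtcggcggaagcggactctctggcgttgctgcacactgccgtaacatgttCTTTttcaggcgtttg
RpS5b, chr3R:14901544-14901663, minus strand: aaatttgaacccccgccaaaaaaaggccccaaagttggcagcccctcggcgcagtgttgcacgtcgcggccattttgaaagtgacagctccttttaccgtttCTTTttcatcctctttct
RpS19a, chrX:16637794-16637913, plus strand: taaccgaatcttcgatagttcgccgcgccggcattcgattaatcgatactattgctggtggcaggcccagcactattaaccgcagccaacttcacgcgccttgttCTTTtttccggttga
RpS19b, chr3R:23933511-23933630, minus strand: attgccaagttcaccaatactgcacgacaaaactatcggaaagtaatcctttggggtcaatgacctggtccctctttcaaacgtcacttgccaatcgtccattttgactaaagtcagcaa
RpS10b, chrX:19597940-19598059, plus strand: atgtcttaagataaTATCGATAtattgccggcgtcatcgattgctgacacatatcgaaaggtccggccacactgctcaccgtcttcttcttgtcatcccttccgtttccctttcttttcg
RpS10a, chr3R:27652660-27652779, plus strand: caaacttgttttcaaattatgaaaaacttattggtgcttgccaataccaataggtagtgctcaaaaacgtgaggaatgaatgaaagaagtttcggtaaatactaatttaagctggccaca
RpS5a and RpS5b both hold a TCT-type start, with the C 4 bases and 2 bases after the annotated TSS. RpS19a holds one with the C 5 bases after the TSS, and RpS19b holds none. RpS10b and RpS10a hold no TCT-type start, and RpS10b carries the DRE.

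MESR4 summits marked 34 of the 38 RpS promoters. A gene was counted when a summit of the authors' thresholded peak list lay within 500 bp of any of its annotated TSSs. The share was 89.5% of RpS genes, against 42.6% of all protein-coding genes (5889 of 13834). Promoter peaks at these 34 genes were also among the strongest of the list. The signal, the authors' enrichment value on a scale set for each list, had a median of 1300 at RpS genes, against 468 at all genes with a promoter peak. With summits ranked by signal from 1, the highest, to 6415, the median rank was 146 for RpS genes and 2397 for all genes with a peak. The 642 strongest summits covered 30 of 38 RpS genes (78.9%), against 5.96% of all protein-coding genes (824 of 13834). Of the other 4 genes with a peak, RpS15Aa and RpS14a ranked 716 and 952, and RpS15Ab and RpS14b ranked 3123 and 3300. There were 2 samples in 1 group, so these are counts and medians without a test.

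**Figure D1:**
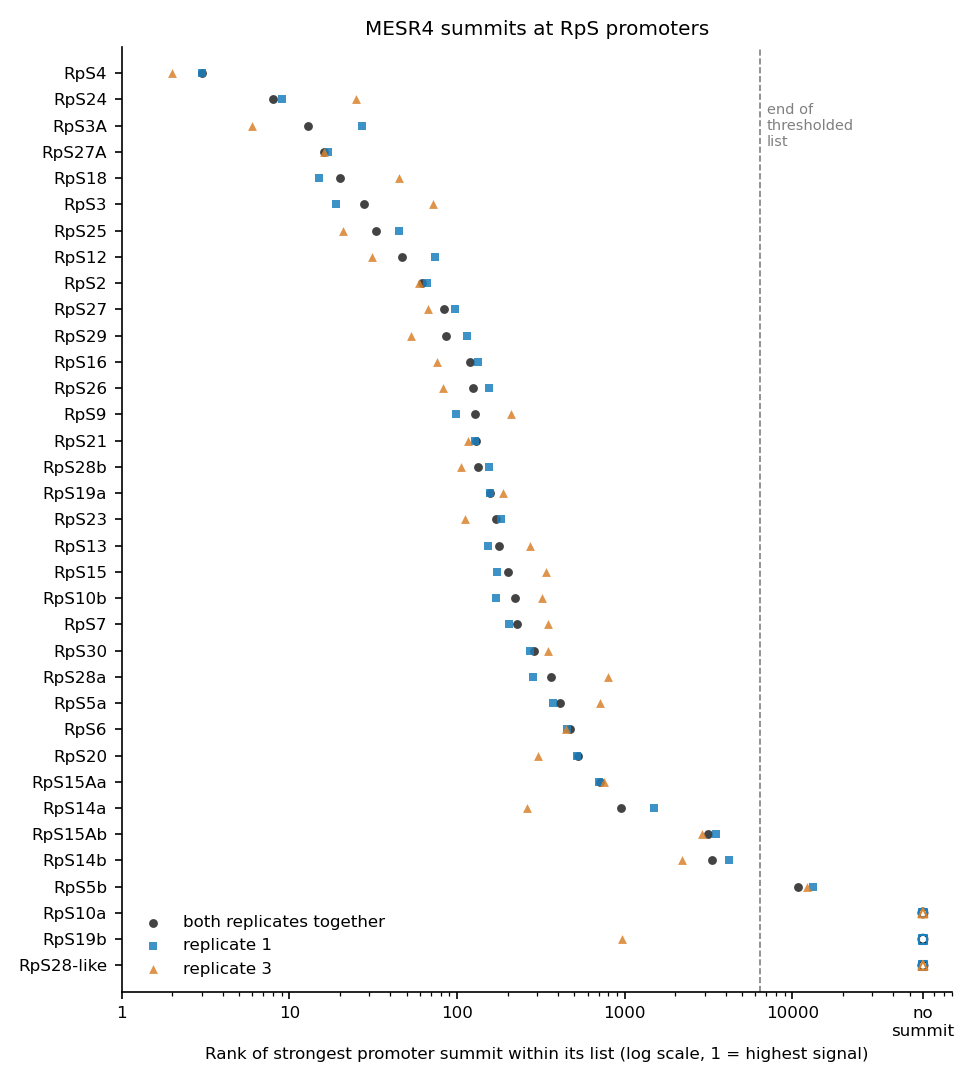
Rank of the strongest summit within 500 bp of a TSS for 35 of the 38 RpS genes, on a log axis where 1 is the highest signal, in the list called on both replicates (circles), in replicate 1 (squares) and in replicate 3 (triangles). Open symbols mark genes without a summit in that list, and the dashed line at 6415 is the end of the thresholded list, with 31 of the genes shown to its left in the list of both replicates.

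Both replicates ranked the RpS promoters highly. The 34 genes had a median rank of 156 in replicate 1 and 134 in replicate 3, where each replicate list held 30000 summits. Over these genes the ranks in the 2 replicates had a Spearman rho of 0.91 (34 genes), against 0.81 over all genes with a promoter peak (5868 genes with a promoter summit in both replicate lists). These values describe ranks across genes of the same libraries, and genes are not independent replicates.

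RpS4, a protein of the subunit body, had the strongest RpS peak. Its signal was 2585 in the list of both replicates, where it ranked 3 of 6415 thresholded summits. It had a signal of 1757 and rank 3 in replicate 1, and a signal of 868 and rank 2 in replicate 3. The summit lay on 3L at 13041860, in the first intron, 59 bp downstream of the nearer of the gene's 2 TSSs. RpS24, encoded on 2R at 22640526 to 22641419, ranked 8 with a signal of 2078. It ranked 9 in replicate 1 and 25 in replicate 3. RpS24 lies in the body of the subunit, and its summit lay 135 bp inside the gene, in the first intron. RpS3A, the RpS gene of the small chromosome 4 and a known Minute locus, ranked 13 with a signal of 2018. Its replicates were further apart, with rank 27 and a signal of 1322 in replicate 1 and rank 6 and a signal of 752 in replicate 3. The summit lay 63 bp downstream of its only TSS, within the coding part of the first exon.

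RpS27A, which is made as a fusion with ubiquitin, ranked 16 with a signal of 2006. It ranked 17 in replicate 1 and 16 in replicate 3, so the replicates placed it almost alike. Its summit was 85 bp downstream of a TSS that Ip259, a gene on the same strand, shares to the base, so the peak cannot be given to 1 of the 2 genes. RpS18, a protein of the subunit head, ranked 20 with a signal of 1938, and it ranked 15 in replicate 1 and 45 in replicate 3. The summit lay 3 bp upstream of its second TSS and 88 bp downstream of its first. RpS3, which lines the entry of the messenger RNA channel and also has a role in DNA repair, ranked 28 with a signal of 1879. Replicate 1 placed it at 19 and replicate 3 at 72, the widest gap among the 10 strongest RpS genes in favour of replicate 1.

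A further 3 of the 10 strongest genes ranked from 33 to 62. RpS25, which many viral internal ribosome entry sites need, had a signal of 1822 and rank 33, with rank 45 in replicate 1 and 21 in replicate 3. RpS12, a protein through which fly cells with unequal ribosomal protein gene dose compete, had a signal of 1663 and rank 47, with ranks of 74 and 31 in replicates 1 and 3. RpS2, whose fly mutation is called string of pearls for its arrested egg chambers, had a signal of 1561 and rank 62, with ranks of 66 and 59 in the same order. All of the strongest genes named above stayed within the first 74 summits of each replicate list.

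Most other RpS genes ranked between 84 and 524. RpS27 and RpS29, both small zinc-binding proteins, ranked 84 and 86. RpS16, RpS26, RpS9 and RpS21 ranked 120, 124, 128 and 129, with signals of 1331 to 1348. Loss of RpS21 causes overgrowth of the larval blood-forming organs in flies. RpS23, a protein of the decoding centre, ranked 170, and RpS13 ranked 179, with signals of 1251 and 1237. RpS15, of the subunit head, ranked 201, and RpS7 ranked 228. RpS30, made as a fusion with a ubiquitin-like protein, ranked 286 with a signal of 1089. RpS6, the substrate of S6 kinase in the growth-control pathway of TOR, ranked 469 with a signal of 936. RpS20 ranked 524 with a signal of 909. By rank, the first 100 summits held 12 RpS genes, the first 200 held 21 and the first 500 held 29, against 125, 250 and 639 of all protein-coding genes, each of which can share a summit with a neighbour.

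**Figure D2:**
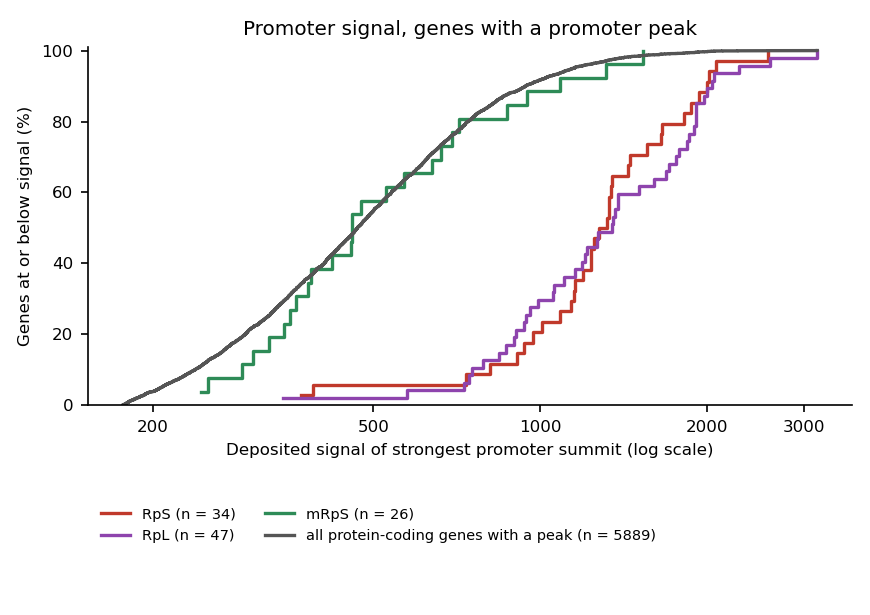
Cumulative share of genes (per cent) by the deposited signal of the strongest promoter summit, on a log axis, for the 34 RpS genes, 47 RpL genes, 26 mRpS genes and 5889 protein-coding genes with a promoter peak. The RpS and RpL lines run together, with medians of 1300 and 1351, while the mRpS line, with a median of 458, follows that of all genes, with a median of 468.

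Other genes of the ribosome and of initiation give the setting for these values. Of the large-subunit genes (RpL), 47 of 50 had a promoter peak, with a median signal of 1351 and a median rank of 119. The mitochondrial small-subunit genes (mRpS) had a peak at 26 of 26, with a median signal of 458 and a median rank of 2490. Of these mRpS genes, 5 (19.2%) were among the 642 strongest summits, led by mRpS23 at rank 64 and mRpS16 at rank 140, against 78.9% of RpS genes and 5.96% of all protein-coding genes. The summit at mRpS23 lay 381 bp from its TSS and 111 bp from that of CenG1A. At mRpS16 the distances were 85 bp and, to the TSS of cg, 12 bp. The summit at mRpS10 was also nearer to a neighbour, Art3, while that at mRpS11 was nearer to mRpS11 than to Ns1. At mRpS26 it lay 141 bp from the TSS. The difference between RpS and mRpS genes was not tested. The cytosolic small subunit also holds 2 proteins whose genes have other names. They are Rack1, a signalling scaffold that ranked 89, and sta, also known as RpSA, that ranked 259. Of the genes for eIF3, the initiation factor that binds the small subunit, 13 of 16 had a peak, with a median rank of 500. The 3 without one were eIF3d2, eIF3f2 and eIF3g2, while eIF3d1, eIF3f1 and eIF3g1 ranked 1791, 131 and 978. Of 7 genes for assembly of the small subunit, all had a peak, from Fib, the fibrillarin methyltransferase at rank 294, to RIOK1, an atypical kinase of late assembly at rank 5449, with a median of 672.

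Within RpS genes, the summits sat just inside the gene. Offsets were measured from the nearest annotated TSS of the gene and are positive downstream. Their median was 95.5 bp at the 34 RpS genes (quartiles 55.2 and 116), against 62 bp at all genes with a promoter peak. The summit lay downstream of the nearest TSS at 28 of 34 RpS genes (82.4%), against 65.6% of all genes with a peak. The same held at 43 of the 47 RpL genes with a peak (91.5%, median offset 74 bp). It also held at all 13 eIF3 genes with a peak (median offset 121 bp) and at 18 of 26 mRpS genes (69.2%). The downstream position is therefore not particular to RpS genes. In 27 RpS genes the summit lay 50 to 150 bp downstream. The exceptions upstream of the nearest TSS were RpS28a (330 bp), RpS19a (116 bp), RpS15Ab (82 bp), RpS9 (79 bp), RpS14b (34 bp) and RpS18 (3 bp). At RpS19a, RpS9 and RpS18 the summit was still downstream of another TSS of the gene, so 31 of 34 summits lay downstream of the most upstream TSS.

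The summits overlapped the start of the gene body. In the canonical transcript, 18 of the 34 lay in the first intron and 1, at RpS16, in the second. Another 7 lay in a 5′ UTR exon, 4 in a coding exon (RpS3A, RpS27, RpS29 and RpS28b), 3 upstream of the gene and 1, at RpS9, upstream of the canonical TSS. The first exons of these genes had a median length of 82 bases, so a summit 100 bp downstream was often past the first splice site. Exon lengths and summit placements over other genes with a peak are not given here. The summit was upstream of the start codon at 20 genes. Thresholded regions at RpS genes had a median width of 776 bp (530 to 1370), against 547 bp at all genes with a peak. The median was 852 bp at RpL genes, 643 bp at eIF3 genes and 542 bp at mRpS genes. At 13 RpS genes (38.2%) more than 1 summit lay within 500 bp of a TSS, against 26.8% of all genes with a peak. The share was 46.8% of bound RpL genes, 53.8% of bound eIF3 genes and 23.1% of mRpS genes.

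**Figure D3:**
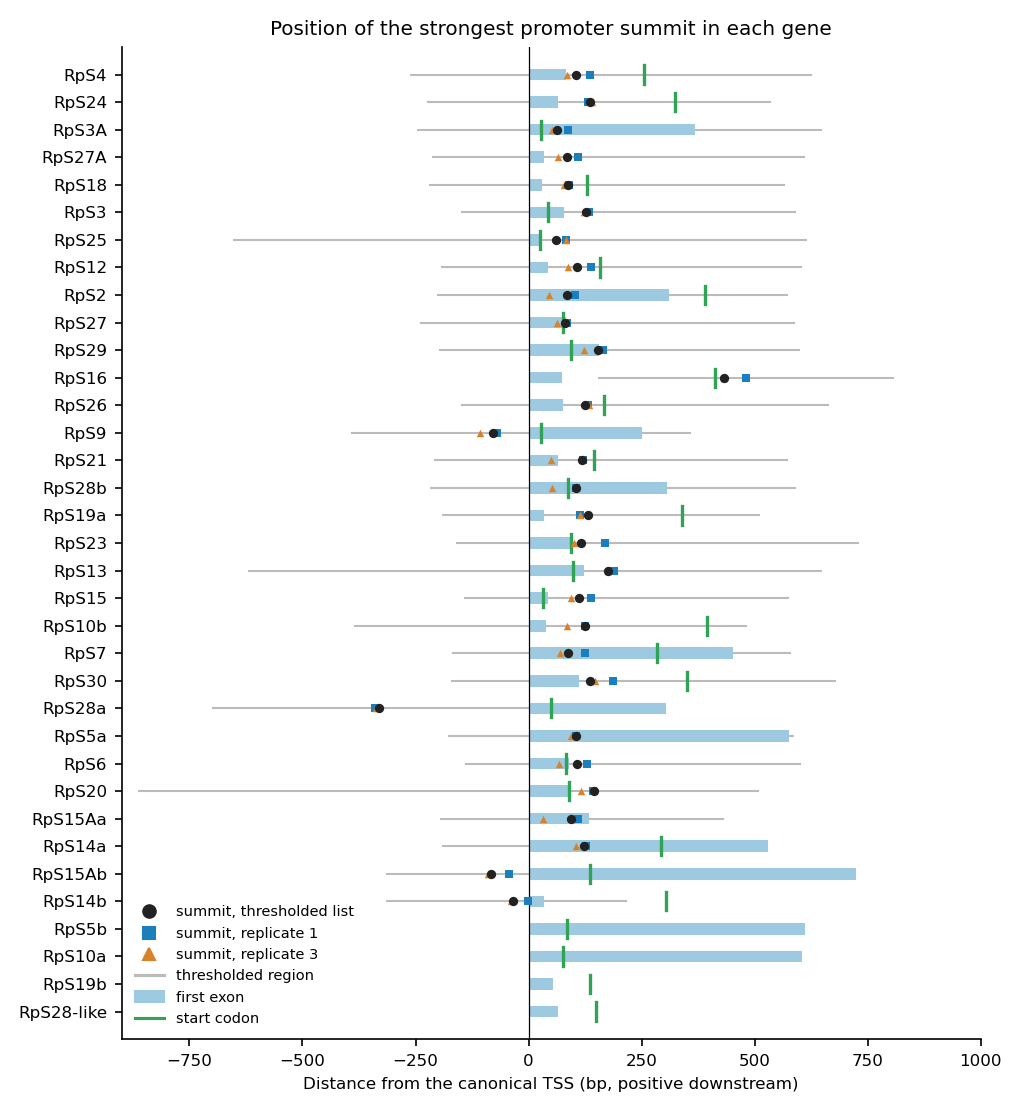
Position of the strongest promoter summit relative to the canonical TSS (bp, positive downstream) for 35 of the 38 RpS genes, with the summit of the thresholded list (circle), of replicate 1 (square) and of replicate 3 (triangle), the thresholded region (grey line), the first exon (blue bar) and the start codon (green tick, shown where within 700 bp). Most summits lie 50 to 150 bp downstream of the TSS, and those of 4 genes, RpS28a, RpS15Ab, RpS9 and RpS14b, lie upstream.

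The 2 replicates differed in where the summit fell. The median offset over the 34 genes was 110 bp in replicate 1 and 67.5 bp in replicate 3. Over all genes with a promoter peak it was 74 bp in replicate 1 and 42 bp in replicate 3. The summit of replicate 3 was upstream of that of replicate 1 in 30 of 34 RpS genes (88.2%), the reverse held in 3 and the positions were equal in 1. Over all genes with a promoter peak the share was 62.5%. The distance between the 2 summits had a median of 38.5 bp and a maximum of 78 bp at RpS genes. It was at most 50 bp in 24 of 34 RpS genes (70.6%). Over all genes with a promoter peak its median was 38 bp, and it was at most 50 bp in 3533 of 5868 (60.2%). A shift of this size between replicates is thus not particular to RpS genes. The shift between replicates is therefore of the same order as the differences in offset between neighbouring RpS genes, and the offset of a single gene is known no better than this. Fragment length in each library is not given in the sources used here, and its part in the shift was not tested.

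Most RpS promoters had a TCT-type start. It was present at 25 of 38 RpS genes, against 8.13% of all protein-coding genes and 8.8% of those with a promoter peak. The same start was present at 31 of 50 RpL genes and at 2 of 26 mRpS genes. In 20 of the 25 RpS genes the C lay 2 to 5 bases downstream of an annotated TSS, and in 2 genes, RpS7 and RpS30, it was the annotated base itself. At RpS18 and RpS14b the C lay 2 and 4 bases before a TSS that is not the canonical one. Both of these matches fall near the end of the first intron of the canonical transcript, so they may be splice-site letters. They are included in the counts of 25 and 24 given here. A promoter peak was found at 24 of the 25 RpS genes with a TCT-type start, RpS5b being the exception. It was found at 10 of the 13 RpS genes without one. Over all protein-coding genes, 518 of the 1125 with such a start had a promoter peak, against 42.6% of all genes. The median ranks of the bound RpS genes were 128 with and 196 without a TCT-type start. Within the RpS genes, a peak was thus frequent with and without a TCT-type start.

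Promoter motifs were searched on both strands from 250 bases before the canonical TSS through 50 bases after it, and a match describes letters only. The DRE (TATCGATA) was present at 13 of 38 RpS genes (34.2%) and at 15 of 50 RpL genes, against 18.1% of all genes with a promoter peak and 9.01% of all protein-coding genes. Those 13 all had a promoter peak, with a median rank of 222. The 21 bound RpS genes without a DRE match had a median rank of 129. Over all genes searched, too, the match was more frequent among those with a peak (18.1% of 5889) than overall (9.01% of 13833). Peaks at genes with a DRE match are thus not particular to RpS genes. RpS24, at rank 8, had 2 matches, which began 66 and 49 bases before the TSS. The core of Motif 1 (GGTCACAC) was present at 4 genes, among them RpS9, RpS15 and RpS23 (10.5%, against 16.2% of bound and 7.6% of all genes). The E-box CACGTG was found at 0 RpS genes, against 10 of 50 RpL genes, 5.3% of bound genes and 4.29% of all genes. GAGAG was present at 4 RpS genes (10.5%), against 23.9% of bound and 30.1% of all genes. TATAAA anywhere in the window was present at 19 (50%), against 45.6% of bound and 44.9% of all genes. The Ohler 7 cores CAGCNCTA and CATCNCTA were present at 5 (13.2%), against 16.4% of bound and 9.68% of all genes. Of these motifs, the DRE was the one whose share in RpS genes stood furthest above both backgrounds, and it was also found at the RpL genes counted above. This is a description without a test.

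**Figure D4:**
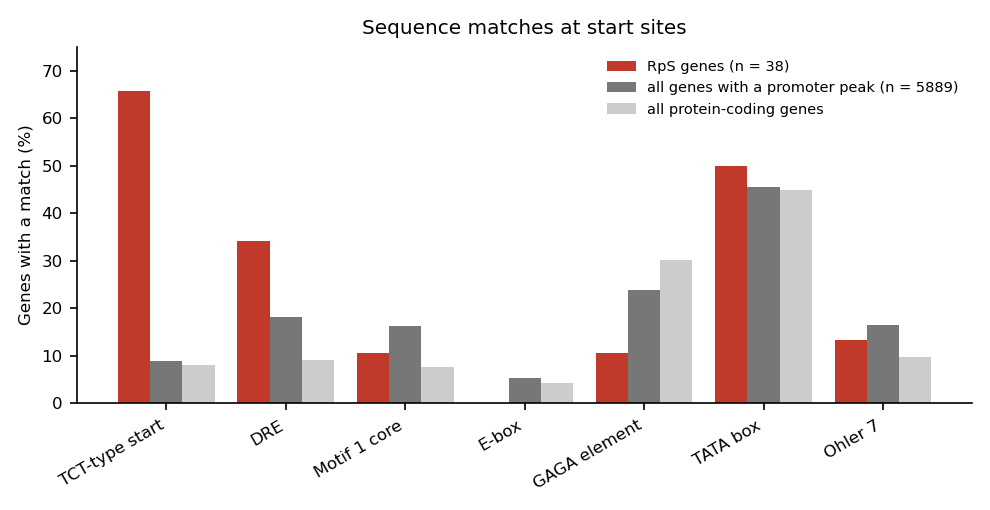
Share of genes (per cent) with a TCT-type start or with each motif match, for the 38 RpS genes (red), all genes with a promoter peak (dark grey) and all protein-coding genes (light grey). The TCT-type start and the DRE (34.2% of RpS genes, against 18.1% and 9.01%) are the 2 bars where RpS genes stand highest above the others, and the E-box has no RpS match.

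Gene copies of 1 protein did not share promoter peaks evenly. In the annotation, 6 RpS proteins have an a and a b copy, and 3 of these 6 pairs had a promoter peak at both members. In the other 3, the peak was at 1 member. At 2 of the 3 pairs with both, the peak of RpS15Ab or RpS28a was nearer to a neighbour's TSS. Giving each summit to its nearest TSS therefore left 1 pair, RpS14a and RpS14b, with a peak at both members. In every pair the member with the stronger peak, or the only one, was the gene with the same number of exons as its partner or more, except RpS14a, which has 2 exons where RpS14b has 3. Promoter windows of a pair (500 bp on each side of the canonical TSS) shared no identical run longer than 26 bases, except for RpS14a and RpS14b with 122 bases.

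RpS5a, the broadly used copy of a protein at the messenger RNA exit, had a signal of 973 and rank 413. It had a signal of 712 and rank 373 in replicate 1, and a signal of 260 and rank 709 in replicate 3. RpS5b, a copy known for its use in the ovary, had no thresholded peak. Its strongest summit within 500 bp of the TSS had a signal of 85.9 and rank 10722 in the list of both replicates, below the thresholded range. It ranked 13179 in replicate 1 and 12230 in replicate 3, so both replicates placed a weak summit at its start. The 2 coding sequences were identical at 78.9% of aligned bases.

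RpS10b, a protein of the subunit head near the messenger RNA entry, had a signal of 1158 and rank 222, with ranks of 170 in replicate 1 and 323 in replicate 3. RpS10a, a copy in a single exon, had no summit within 500 bp of its TSS in the thresholded list, in the list of both replicates or in either replicate. The nearest summit of the list of both replicates was 1001 bp downstream at rank 29426, near the end of its 30000 summits. RpS19a, whose human counterpart is mutated in Diamond-Blackfan anaemia, had a signal of 1277 and rank 158, with ranks of 158 and 189 in replicates 1 and 3. RpS19b, a copy known from the germ line, had no thresholded summit within 500 bp. A summit of rank 913 in the list of both replicates lay 570 bp upstream of it and 188 bp from the TSS of CG5854, the divergent neighbour. In replicate 3 that summit fell 476 bp from the TSS of RpS19b and 94 bp from that of CG5854, at rank 960, and the gene counted as bound in that replicate alone.

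RpS15Aa had a signal of 813 and rank 716, with ranks of 699 and 755 in replicates 1 and 3. RpS15Ab, a single-exon copy, had a signal of 388 and rank 3123, with ranks of 3511 and 2880. The copies encode a protein that binds the central domain of the small-subunit ribosomal RNA, and their coding sequences were identical at 98.2% of aligned bases. The summit at RpS15Ab lay 82 bp upstream of its TSS and 46 bp from the TSS of Lsm10, a subunit of the U7 particle that processes histone messenger RNA. The TSSs of RpS15Ab and Lsm10 are 36 bp apart and divergent.

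RpS14a and RpS14b, tandem copies on X, encode a protein near the messenger RNA exit. RpS14a had a signal of 734 and rank 952, and the replicates disagreed, with rank 1496 and a signal of 428 in replicate 1 and rank 260 and a signal of 355 in replicate 3. RpS14b had a signal of 370 and rank 3300, with rank 4181 in replicate 1 and 2194 in replicate 3. It was the RpS gene with the lowest-ranking promoter peak. The coding sequences were identical at 97.8% of aligned bases, and how reads shared by both copies were handled is not given in the sources used here. Its part in these 2 signals was not tested.

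RpS28b, a protein of the messenger RNA exit channel, had a signal of 1323 and rank 134, with ranks of 155 in replicate 1 and 106 in replicate 3. RpS28a, a single-exon copy, was counted with a signal of 1009 and rank 365, and its ranks were 283 in replicate 1 and 795 in replicate 3. Its summit lay 330 bp upstream of its own TSS and 136 bp from the TSS of Axn, the Wnt pathway scaffold Axin. RpS28-like, a further copy identical to RpS28b at 57.4% of aligned coding bases, had no summit within 500 bp in any list. A summit 726 bp downstream, at rank 7071 in the list of both replicates, was 61 bp from the TSS of numb, a Notch inhibitor. In the thresholded list, each of the 3 single-exon RpS genes lacked a promoter peak nearest to its own TSS. Of the 35 genes with several exons, 32 had one, counting RpS27A, where it was equally near. The same shares over all protein-coding genes are not given here. In the list of both replicates, RpS15Ab also had a weaker summit 118 bp downstream of its TSS, at rank 12972.

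**Figure D5:**
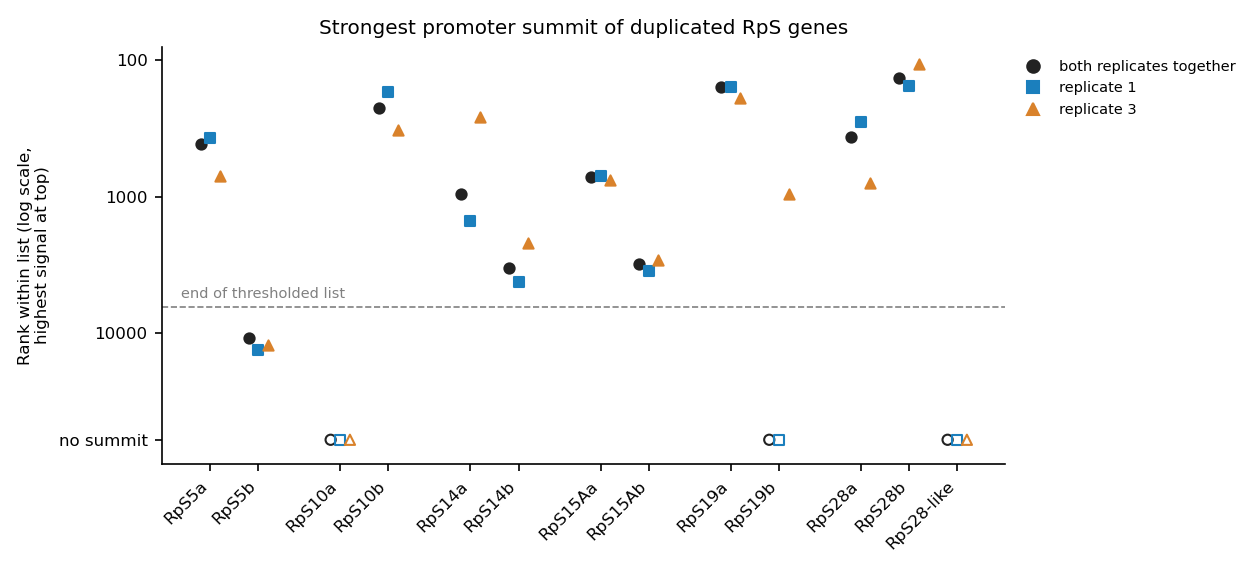
Rank of the strongest promoter summit (log axis, highest signal at the top) of the 13 duplicated RpS genes in the list of both replicates (circle), replicate 1 (square) and replicate 3 (triangle). Open symbols mark genes with no summit within 500 bp in that list, and the dashed line at 6415 is the end of the thresholded list.

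Neighbouring genes were close at many RpS promoters. The RpS genes lie on 2L (6), 2R (7), 3L (4), 3R (12), 4 (1) and X (8). Of the 38, 21 had a divergent protein-coding neighbour with a TSS within 1000 bp, and 20 of these 21 had a promoter peak. No protein-coding TSS lay within 1000 bp of 14 RpS genes, and 12 of those had a peak. Over all protein-coding genes 42.6% had a peak, and the shares with and without such neighbours are not given here. Whether RpS genes differ from other genes in this respect was not tested. The bound genes had a median rank of 190 with a divergent neighbour and 74 without one. RpS4, RpS24 and RpS3A, at ranks 3, 8 and 13, were among the genes with no protein-coding TSS within 1000 bp. In 9 RpS genes the summit was also within 500 bp of a neighbour's TSS, and it was nearer to the neighbour at RpS28a and RpS15Ab and equally near at RpS27A. Neighbours that shared the summit with a nearer RpS gene included Nup37 of the nuclear pore at RpS27, the COP9 subunit CSN8 at RpS13, and plu, a regulator of the first embryonic cell cycles, at RpS18. RpS6 and bys, itself a gene of small-subunit assembly, are divergent with TSSs 549 bp apart and had separate peaks, at ranks 469 and 1661.

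Many RpS genes carry small nucleolar RNA (snoRNA) genes within their bounds, and such RNAs guide modification of ribosomal RNA. In the annotation, 12 of the 38 genes held 41 snoRNA genes on the same strand, led by RpS5a with 14, RpS7 with 7 and RpS16 with 5. Whether each lies in an intron was not checked. All 12 had a promoter peak, against 34 of all 38 RpS genes, and the share over other genes that hold snoRNA genes is not given here. Their ranks ran from 3 at RpS4 to 524 at RpS20 with a median of 124, while the 22 other bound genes had a median rank of 164.

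The count of bound RpS genes changed by at most 2 under every other definition tried. It was 33 within 250 bp of a TSS, where RpS28a was lost, against 38.6% of all genes. It was 35 within 1000 bp, where RpS19b was gained, against 45.3% of all genes. The 3207 strongest summits alone gave 33, without RpS14b, against 27.4% of all genes. The top 6415 summits of replicate 3 alone gave 35, with RpS19b, against 43.3% of all genes, and those of replicate 1 alone gave 34, against 41.7%. Canonical TSSs alone gave 34 (40% of all genes), and 1 summit per region gave 34 (42.3% of all genes). Giving each summit to its nearest TSS gave 32, without RpS15Ab and RpS28a, against 36% of all genes.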

How the data were processed

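MESR4 ChIP-seq peaks of 2 embryo samples were analysed from 4 deposited peak lists. Per the deposited listing, the authors called peaks and background for each replicate and for both replicates together against 1 shared control alignment in dm6, and a further list kept peaks past a threshold on the irreproducible discovery rate. Each replicate list and the list of both replicates held 30000 summits, and the thresholded list held 6415 in 5534 regions, all found among the 6415 highest of the list of both replicates. The deposited signal of a peak is the authors' enrichment value on a scale set per list (176 to 3171 in the thresholded list), so lists were compared by rank. The aligner, peak caller, threshold and read depth are not given in the sources used here, and no counting interval is possible.

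Genes came from the Ensembl BDGP6 annotation and sequences from the RefSeq release 6 genome, and positions count from 1. The histone cluster (111 genes) was left out. A promoter peak was a thresholded summit within 500 bp of any TSS of the gene, and 1 summit could count for several genes. The strongest such summit gave the signal, rank and offset. Alternatives were windows of 250 and 1000 bp, the 3207 strongest summits, each replicate alone, canonical TSSs, 1 summit per region, and the nearest TSS alone. An offset from the most upstream TSS was added after the data were seen. Coding sequences were aligned with Biopython 1.88, and tables were made with Python 3.11.15, pandas 2.3.3 and numpy 2.4.6. The counting steps were tested on simulated data. Values in every list were given for the 10 genes with the highest signal, genes without a peak, a/b pairs and genes whose summit was nearer to another gene, and the rest by rank. The values of 3 members are counted but not reported here. The members and lists were chosen with earlier results of these data known, so no test over members was made.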

Additional observations from a re-analysis of the deposited data

How the results depend on the processing

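Under the alternatives, 31 recomputed values stayed near the reported ones and 9 moved further, where near means within 1 SD between replicates for medians and within 1.5 times for counts. Among counts, several of the near values moved by more than the spread between replicates, such as 32 bound genes with the nearest TSS alone. The median rank of RpS summits was 134 with the 250 bp window, 158 with the 1000 bp window and 134 among the 3207 strongest summits, against 146 as reported. Leaving out each replicate in turn gave a median rank of 153 to 156, a bound count of 34 to 35, a median offset of 67 to 110 bp, 2 to 3 RpS genes whose summit was nearer to another gene, and 3 to 4 a/b pairs with a peak at both members. RpS genes with the summit closer to a neighbour's TSS numbered 1 with the 250 bp window and 4 with the 1000 bp window, against 2 as reported. The narrow window lost RpS28a and the wide one gained RpS19b, and the cause of the remaining change was not tested. A TCT-type start was counted at 2 RpS genes when the C had to be the annotated base, against 25 with a tolerance of 5 bp, and at 17 when canonical TSSs alone were searched. The a/b pairs with a peak at both members numbered 2 with the 250 bp window and among the 3207 strongest summits, 4 with the 1000 bp window and 1 with the nearest TSS alone, against 3 as reported. This last count was chosen after the data were seen. The median offset was 116 bp from the most upstream TSS. No paired analysis was possible because the series has 1 group.

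With 2 replicates numbered 1 and 3 and no control group's peak list, no value here has a test. The depth of reads is not given in the sources used here. A missing peak at RpS5b, RpS10a, RpS19b or RpS28-like therefore says that none passed the threshold at an unknown depth, not that binding was absent.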

Other observations

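RpS genes on the X chromosome had weaker promoter peaks than RpS genes on the autosomes, a split chosen after its values were seen and without a test. The 8 X-linked RpS genes, all with a peak, had a median signal of 955 and ranks from 134 at RpS28b to 3300 at RpS14b, with a median of 441. The 26 bound autosomal RpS genes had a median signal of 1345 and a median rank of 122. The order was the same in each replicate, with median ranks of 414 on X and 122 on the autosomes in replicate 1, and 384 on X and 79.5 on the autosomes in replicate 3. The RpL genes had a median rank of 350 on X (6 genes) and 116 on the autosomes (41 genes). All protein-coding genes with a peak had a median rank of 2760 on X (977 genes) and 2334 on the autosomes (4912 genes). The X-linked RpS genes include RpS14a and RpS14b, the tandem copies with near-identical coding sequences, at ranks 952 and 3300. Apart from RpS6, every X-linked RpS gene is a member of an a/b pair. Among the bound autosomal RpS genes, only RpS15Ab and RpS28a are. The split by chromosome and a split by membership of an a/b pair therefore nearly coincide here and cannot be told apart. The cause of this difference was not tested.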
